A study of Mus musculus with 24 samples.

Results

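The 42 genes described here encode the machinery that copies DNA and the enzymes that make its building blocks. They were taken by gene symbol from a list of such genes, each from the probe set with the highest mean over all arrays, and all 42 were measured among 19938 genes. No filter on low levels was applied. By role they comprised 10 genes of origin licensing, 6 of helicase activation, 6 of the sliding clamp and its loader, 6 of polymerases and primase, 4 of strand processing, 5 of nucleotide supply, 3 of entry into S phase and 2 of repair.

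Total RNA was measured on 24 arrays from mouse cells, 4 per group, in 6 groups. C57epi.1 and Bm12.4 are epithelial lines, both raised from the upper reproductive tract. The donor mice were C57BL/6 for C57epi.1 and B6(C)-H2-Ab1bm12/KhEgJ, a strain with an altered class II molecule, for Bm12.4. The third kind of cell was macrophages grown with GM-CSF from C57BL/6 femur marrow. Each kind was either given an inflammatory supernatant, diluted to 33% (v/v), or kept in RPMI medium alone. The supernatant was conditioned medium from a CD4 T cell clone specific for Chlamydia that had been incubated with infected epithelial cells, and its interferon-gamma was brought to 4 ng/ml. Each line is represented by cells of that line only, so a line and its mouse strain cannot be told apart. The comparison asks how tract epithelium and macrophages differ at rest and in a milieu like that of a genital Chlamydia infection.

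Before S phase, the origin recognition complex (Orc1, Orc6), Cdc6 and Cdt1 load the Mcm2 to Mcm7 helicase ring onto DNA. The ring is activated by Cdc45, Mcm10 and the GINS subunits (Gins1 to Gins4), after which primase and the polymerases copy both strands, held on DNA by the Pcna clamp that the Rfc complex loads. Ribonucleotide reductase (Rrm1, Rrm2), thymidylate synthase (Tyms), thymidine kinase (Tk1) and dUTPase (Dut) supply the nucleotides. Many of these genes are transcribed in late G1 and S phase under the E2F factors, of which E2f1 is one, downstream of cyclin E (Ccne1, Ccne2), and their mRNA levels are commonly read as a sign of how many cells in a culture are cycling.

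Values are log2 levels from RMA. A difference of 1 is a 2-fold difference, and levels of different genes are not compared, because probe sets differ in brightness. Array medians lay between 5.0 and 5.19, arrays of 1 group correlated at 0.967 to 0.9975 across genes, and no 2 arrays were identical. The labels do not say that replicates came from separate cultures, so p-values measure the spread between these arrays, which may be technical. The macrophage markers (mean of Ptprc, Csf1r, Itgam, Cd68 and Adgre1) lay at 4.25 to 4.73 in the lines and at 11.71 to 11.93 in macrophages. The epithelial markers (mean of Epcam, Cdh1, Krt8, Krt18 and Krt19) lay at 6.03 to 7 in the lines and at 4.89 to 5.29 in macrophages. Of these, Krt19 was at 10.69 to 12.49 in the lines, while Epcam and Cdh1, which define many epithelia, were no higher than 3.93 and 4.68 there. The mesenchymal markers (mean of Col1a1, Col3a1, Dcn, Pdgfra and Sparc) lay at 10.32 to 12.18 in the lines and at 5.51 to 6.16 in macrophages. T cell markers (Cd3e, Cd3g, Cd3d, Cd2, Cd4) averaged 3.73 to 4.21 in every array.

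**Figure D1:**
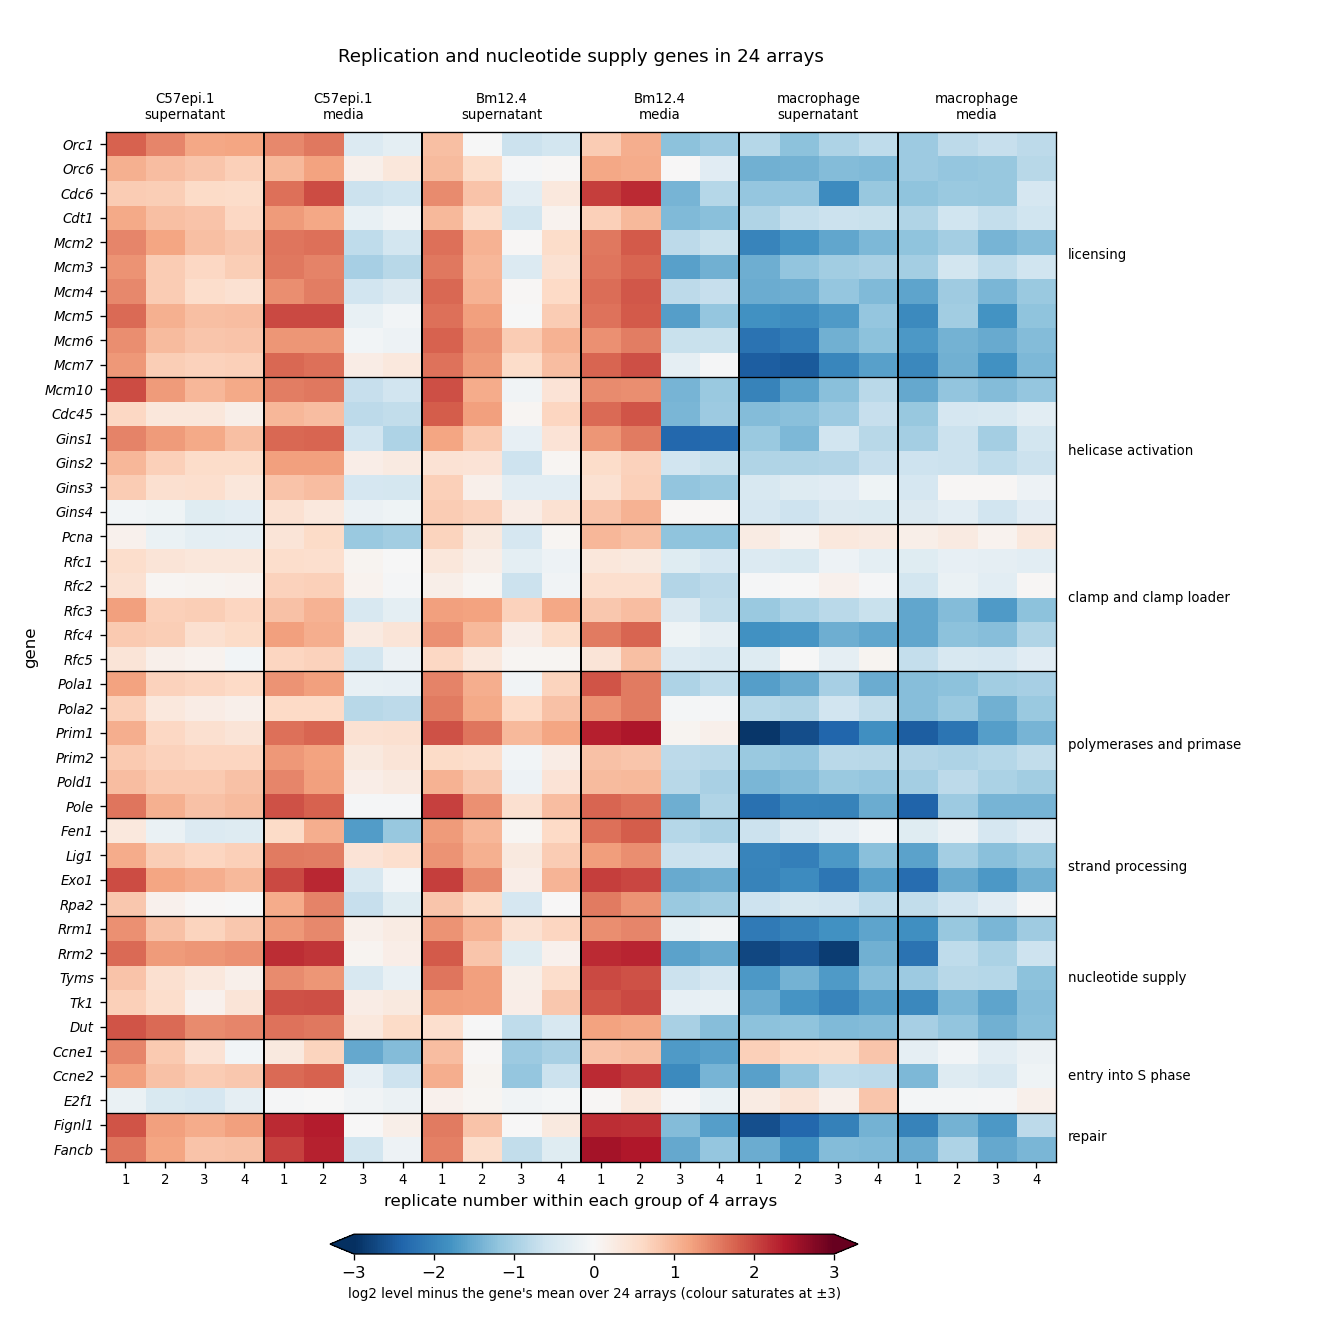
Log2 level of each of the 42 genes (rows, by role) in each of 24 arrays (columns, by group and replicate number), minus the gene's own mean over the arrays, with red higher and blue lower. In media, replicates 3 and 4 of both lines are lower than replicates 1 and 2 in all 42 rows, least so for E2f1 (−0.12 in C57epi.1 and −0.29 in Bm12.4), and the macrophage arrays are blue in most rows.

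The arrays of each line fell into 2 pairs. In media, replicates 3 and 4 lay below replicates 1 and 2 for 42 of 42 genes in C57epi.1 and for 42 of 42 in Bm12.4, against 23.7% and 24.1% of all genes. The median difference between the pairs was −1.54 in C57epi.1 and −2.22 in Bm12.4, where the median over all genes was 0.03 and 0.08. In RNA from whole cultures, fewer cells in S phase and less of each mRNA per cell cannot be told apart. The labels do not call these pairs batches or say how they differ. The pairs were defined after this split had been seen, so the gap between them is described without a test.

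The mean level over the 42 genes in each array shows the same split. With supernatant it was 8.48 and 8.47 in replicates 3 and 4 of C57epi.1, against 9 and 8.62 in replicates 1 and 2, and in media it was 7.61 and 7.71 in replicates 3 and 4, against 9.2 and 9.26 in replicates 1 and 2. In Bm12.4 with supernatant it was 7.82 and 8.24 in replicates 3 and 4, against 9.14 and 8.69 in replicates 1 and 2, and in media 7 and 7.06 in replicates 3 and 4, against 9.28 and 9.36 in replicates 1 and 2. The treated arrays of both lines therefore lay between the high and the low media pair. The low Bm12.4 pair lay within the range of the macrophage arrays, 6.6 to 7.13, and the low C57epi.1 pair above it.

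**Figure D2:**
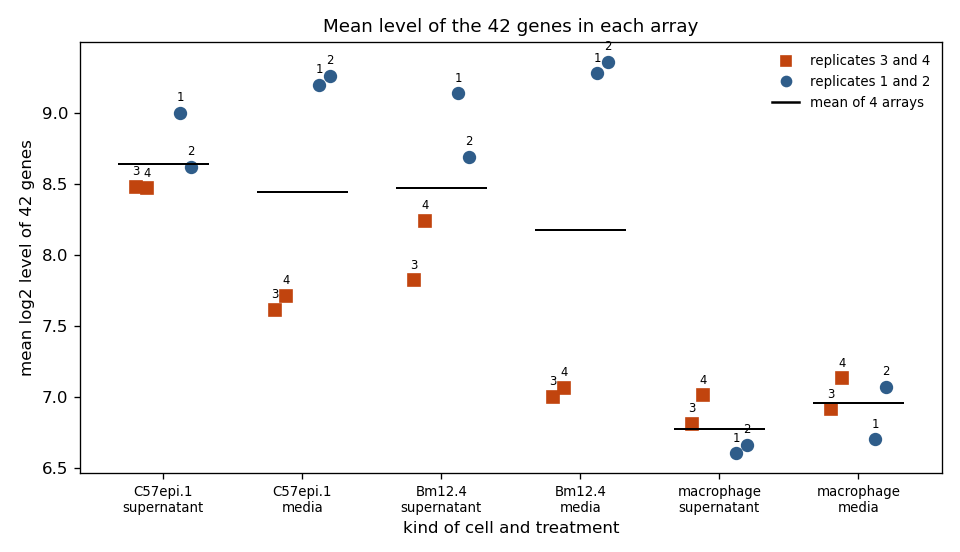
Mean log2 level of the 42 genes in each array (vertical axis) by kind of cell and treatment (horizontal axis), with squares for replicates 3 and 4, circles for replicates 1 and 2 and a bar for the mean of 4 arrays. The supernatant arrays of the lines spread from 8.47 to 9 in C57epi.1 and from 7.82 to 9.14 in Bm12.4, while the media arrays form 2 separate pairs, at 7.61 and 7.71 against 9.2 and 9.26 and at 7 and 7.06 against 9.28 and 9.36.

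Among the licensing genes, Cdc6, which recruits the helicase to origins, had 1 of the widest media gaps. In C57epi.1 media it read 6.34 and 6.39 in replicates 3 and 4, against 8.64 and 8.96 in replicates 1 and 2, a 5.41-fold gap. In Bm12.4 media it read 5.6 and 6.13 in replicates 3 and 4, against 9.07 and 9.24 in replicates 1 and 2, a 9.78-fold gap. Cdc6 in the low Bm12.4 pair thus lay within the range of the macrophages, 5.1 to 6.48. The helicase subunits Mcm3 and Mcm5 had gaps of −2.44 and −2.12 in C57epi.1 and of −3.22 and −3.14 in Bm12.4. Mcm2, Mcm4, Mcm6 and Mcm7 had gaps of −2.29, −1.98, −1.45 and −1.42 in C57epi.1 and of −2.44, −2.5, −2.13 and −2 in Bm12.4. Cdt1, the partner of Cdc6 in loading, and Orc1, the large subunit of the origin recognition complex, had gaps of −1.38 and −1.88 in C57epi.1. Orc6, the small subunit, had the narrowest gap of the role, −0.85 in C57epi.1 and −1.3 in Bm12.4.

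Promoters of 4 licensing genes are shown because each carries, within a set of genes that moved together in the lines, the 8-letter core that E2F factors are known to bind. RefSeq promoters (assembly GRCm38.p6, 250 bases before and 50 from the transcription start) were found for 33 of the 42 genes, 37 promoters in all. TTTGGCGC, TTTCGCGC, TTTCCCGC or TTTGCCGC, on either strand and with overlapping matches counted, was present in 12 of the 37 (32.4%), 1 promoter for each of 12 genes, and in 574 of 19177 promoters of all genes tested (2.99%). The 12 genes were Orc1, Cdc6, Cdt1, Mcm3, Mcm5, Mcm6, Mcm7, Gins3, Rfc3, Pola1, Pold1 and Lig1. The sequences run 5′ to 3′ on the gene's strand, and the capitals mark these letters.
Cdc6 promoter, chr11:98907901-98908200, plus strand: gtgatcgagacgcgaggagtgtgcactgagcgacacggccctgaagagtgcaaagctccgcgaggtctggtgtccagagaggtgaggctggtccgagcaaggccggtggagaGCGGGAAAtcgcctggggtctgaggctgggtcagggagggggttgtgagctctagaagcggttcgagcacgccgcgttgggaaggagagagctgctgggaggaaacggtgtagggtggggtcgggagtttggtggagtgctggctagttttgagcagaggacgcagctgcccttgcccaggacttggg
Mcm3 promoter, chr1:20820263-20820562, minus strand: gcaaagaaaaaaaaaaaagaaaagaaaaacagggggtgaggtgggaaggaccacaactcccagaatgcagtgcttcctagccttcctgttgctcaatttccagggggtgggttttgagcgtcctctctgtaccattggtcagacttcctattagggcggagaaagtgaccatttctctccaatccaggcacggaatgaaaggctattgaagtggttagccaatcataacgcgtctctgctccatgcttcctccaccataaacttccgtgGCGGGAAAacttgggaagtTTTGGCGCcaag
Mcm5 promoter, chr8:75109259-75109558, plus strand: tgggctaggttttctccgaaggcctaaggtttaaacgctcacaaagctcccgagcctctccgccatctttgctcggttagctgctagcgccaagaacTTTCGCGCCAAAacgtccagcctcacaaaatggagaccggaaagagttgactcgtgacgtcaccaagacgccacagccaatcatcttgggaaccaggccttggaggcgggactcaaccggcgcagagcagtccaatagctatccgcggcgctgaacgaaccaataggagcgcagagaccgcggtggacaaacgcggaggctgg
Mcm6 promoter, chr1:128359656-128359955, minus strand: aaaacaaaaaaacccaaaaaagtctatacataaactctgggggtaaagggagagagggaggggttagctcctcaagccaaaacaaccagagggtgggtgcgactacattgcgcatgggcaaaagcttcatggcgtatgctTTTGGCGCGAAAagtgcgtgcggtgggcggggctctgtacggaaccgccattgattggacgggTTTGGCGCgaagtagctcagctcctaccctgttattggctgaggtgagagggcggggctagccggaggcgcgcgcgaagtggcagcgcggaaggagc

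Counted from the start site, the match began at position −138 in Cdc6, at 20 and 39 in Mcm3, at −153 and −149 in Mcm5, and at −110, −106 and −47 in Mcm6. A run of letters is a description of the promoter and not evidence that a factor binds there. The median media gap was −1.44 in C57epi.1 and −2.1 in Bm12.4 over the 12 genes with a match, against −1.66 and −2.31 over the 21 with a promoter and no match, so the median gap was not wider with the letters than without. CCAAT, another motif common in cell cycle promoters, stood in 54.1% of the 37 promoters, against 37.4% of all promoters, and TTTGAA or TTTAAA in 21.6%, against 23.7%.

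Helicase activation held some of the widest and some of the narrowest gaps. Gins1, a subunit of the GINS complex, read 6.05 and 5.7 in replicates 3 and 4 of C57epi.1 media, against 8.35 and 8.36 in replicates 1 and 2, 5.58-fold apart. In Bm12.4 media it read 4.27 and 4.3 in replicates 3 and 4, against 7.96 and 8.18 in replicates 1 and 2, 13.8-fold apart. Gins1 in the low Bm12.4 pair was below every macrophage array, the lowest of which read 5.28. T cell markers averaged 3.9 to 3.91 in that low pair, so Gins1 read near the array background there, which may limit the size of its gap. Gins4, a subunit of that same complex, had a gap of only −0.54 in C57epi.1 and −0.9 in Bm12.4, and Gins2 and Gins3 lay between, at −0.99 and −1.4 in C57epi.1. The subunits of 1 complex thus did not share 1 size of gap. Cdc45, which joins the helicase at the fork, read 6.87 and 6.91 in replicates 3 and 4 of C57epi.1 media, against 8.63 and 8.58 in replicates 1 and 2, and 6.28 and 6.56 against 9.34 and 9.54 in Bm12.4 media. The gaps of Mcm10 were −2.19 in C57epi.1 and −2.67 in Bm12.4.

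The clamp and its loader had the smallest median gap of the 8 roles, −0.93 in C57epi.1 media and −1.4 in Bm12.4 media. Pcna, the sliding clamp, read 9.9 and 9.98 in replicates 3 and 4 of C57epi.1 media, against 11.4 and 11.58 in replicates 1 and 2. In Bm12.4 media it read 9.8 and 9.8 in replicates 3 and 4, against 12.01 and 11.92 in replicates 1 and 2. A second Pcna probe set differed from the one used by at most 0.02 in any array. Of the loader subunits, Rfc3 had the widest gap in C57epi.1 (−1.35) and Rfc4 in Bm12.4 (−1.86), while Rfc1, the large subunit, had the narrowest in both (−0.48 in C57epi.1 and −0.74 in Bm12.4). Rfc2 and Rfc5 lay between, at −0.68 and −1.03 in C57epi.1.

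Polymerases and primase had the next smallest median gap after the clamp and its loader, −1.31 in C57epi.1 media and −2.06 in Bm12.4 media. Pole, the catalytic subunit of the leading strand polymerase, read 6.77 and 6.76 in replicates 3 and 4 of C57epi.1 media, against 8.71 and 8.56 in replicates 1 and 2, and 5.33 and 5.89 against 8.53 and 8.45 in Bm12.4 media. Pola1, the catalytic subunit of polymerase alpha, read 7.24 and 7.2 in replicates 3 and 4 of C57epi.1 media, against 8.81 and 8.69 in replicates 1 and 2, and 6.53 and 6.69 against 9.34 and 9.02 in Bm12.4 media. In neither gene did the pairs overlap. The gaps of Pola2, Prim1, Prim2 and Pold1 ran from −1.4 to −0.92 in C57epi.1 and from −2.26 to −1.52 in Bm12.4.

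Strand processing had wider gaps. Exo1, an exonuclease of mismatch repair and end resection, read 5.81 and 6.21 in replicates 3 and 4 of C57epi.1 media, against 8.26 and 8.55 in replicates 1 and 2, 5.26-fold apart. In Bm12.4 media it read 4.78 and 4.83 in replicates 3 and 4, against 8.35 and 8.29 in replicates 1 and 2, 11.4-fold apart. Fen1, which trims flaps from Okazaki fragments, read 6 and 6.53 in replicates 3 and 4 of C57epi.1 media, against 8.24 and 8.76 in replicates 1 and 2, and 6.81 and 6.73 against 9.33 and 9.49 in Bm12.4 media. The low pairs of both lines thus lay below the macrophage range of Fen1, 7.04 to 7.6. Rpa2, of the single-strand binding complex, and Lig1, the ligase that seals the fragments, had gaps of −1.82 and −1.09 in C57epi.1 and of −2.52 and −1.95 in Bm12.4.

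Rrm2, the S phase subunit of ribonucleotide reductase, had the widest gap of the nucleotide supply genes. It read 9.01 and 9.11 in replicates 3 and 4 of C57epi.1 media, against 11.14 and 11.07 in replicates 1 and 2, 4.13-fold apart. In Bm12.4 media it read 7.31 and 7.41 in replicates 3 and 4, against 11.16 and 11.21 in replicates 1 and 2, 14.2-fold apart. Rrm1, its partner subunit, had narrower gaps of −1.17 in C57epi.1 and −1.58 in Bm12.4. Tyms, which makes thymidylate, read 6.59 and 6.86 in replicates 3 and 4 of C57epi.1 media, against 8.5 and 8.39 in replicates 1 and 2, and 6.43 and 6.57 against 9.06 and 8.98 in Bm12.4 media. Dut and Tk1 had gaps of −1.15 and −1.66 in C57epi.1 and of −2.31 and −2.17 in Bm12.4. A second Tk1 probe set differed from the one used by up to 1.68 in a single array, but its gaps, −1.92 in C57epi.1 and −2.09 in Bm12.4, were of similar size.

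Of the genes of S phase entry, both cyclins E followed the split and E2f1 hardly did. Ccne1 read 5.88 and 6.12 in replicates 3 and 4 of C57epi.1 media, against 7.71 and 8.08 in replicates 1 and 2, and 5.71 and 5.78 against 8.27 and 8.31 in Bm12.4 media. Ccne2 read 5.71 and 5.34 in replicates 3 and 4 of C57epi.1 media, against 7.65 and 7.72 in replicates 1 and 2, and 4.06 and 4.56 against 8.19 and 8.07 in Bm12.4 media. With −3.82, Ccne2 and Rrm2 had the widest Bm12.4 gaps of the 42. Ccne2 in the low Bm12.4 pair also read near the mean of the T cell markers there, 3.9 to 3.91, which may limit the size of its gap. E2f1 read 7.26 and 7.18 in replicates 3 and 4 of C57epi.1 media, against 7.33 and 7.35 in replicates 1 and 2, and 7.34 and 7.17 against 7.41 and 7.68 in Bm12.4 media. Its gaps of −0.12 in C57epi.1 and −0.29 in Bm12.4 were the narrowest of the 42. The repair genes Fancb, of the Fanconi anaemia core complex, and Fignl1, an ATPase of recombination repair, had gaps of −2.52 and −2.21 in C57epi.1 and of −3.81 and −3.68 in Bm12.4.

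The order of the genes was similar in both lines. Across the 42 genes the media gaps of C57epi.1 and Bm12.4 correlated with Pearson's r of 0.9 and Spearman's rho of 0.89, as a description, since the genes share 8 arrays. The gap was narrower in C57epi.1 than in Bm12.4 for 42 of 42. In the treated arrays of the same numbers the gaps had the same direction and were smaller. Replicates 3 and 4 lay below replicates 1 and 2 for 35 of 42 genes in C57epi.1 (20.5% of all genes) and for 42 of 42 in Bm12.4 (23.9%). The medians were −0.33 in treated C57epi.1 and −0.84 in treated Bm12.4, against −1.54 and −2.22 in media. The gap was smaller than in media for 42 of 42 genes in each line, a count that has no value over all genes beside it. The pairs were picked for their media levels, which bears on how the treated gap compares with the media gap. Replicate 1 was the highest of the 4 treated arrays for 42 of 42 genes in C57epi.1 and for 42 of 42 in Bm12.4. In treated Bm12.4, replicate 3 was the lowest for 40 of 42.

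**Figure D3:**
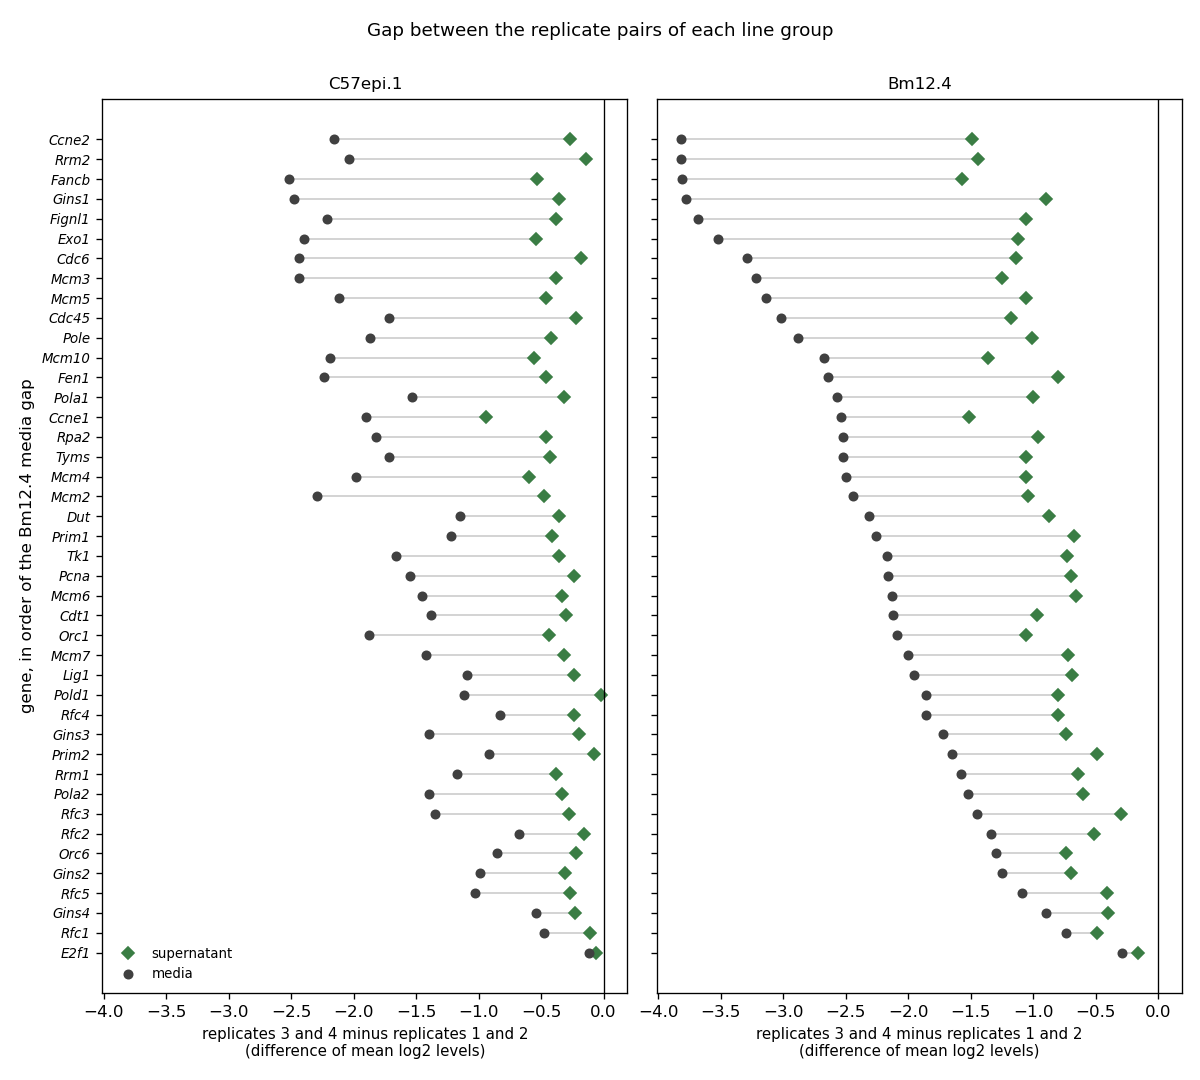
Difference of mean log2 level between replicates 3 and 4 and replicates 1 and 2 (horizontal axis) for each of the 42 genes (vertical axis, ordered by the Bm12.4 media gap) in C57epi.1 and Bm12.4, with diamonds for supernatant and circles for media. Every media gap is negative and wider than the supernatant gap of that gene, from −3.82 for Ccne2 and Rrm2 to −0.29 for E2f1 in Bm12.4.

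Some cell type markers also differed between the pairs in media, and others hardly did. The mean of the epithelial markers was 6.7 to 6.84 in replicates 3 and 4 of C57epi.1 media, against 6.56 to 6.9 in replicates 1 and 2. In Bm12.4 media it was 6.03 to 6.04 in replicates 3 and 4, against 6.11 in replicates 1 and 2. The mesenchymal markers (mean of Col1a1, Col3a1, Dcn, Pdgfra and Sparc) were at 11.61 to 11.63 in replicates 3 and 4 of C57epi.1 media, against 10.72 to 10.9 in replicates 1 and 2. In Bm12.4 media they were at 12.15 to 12.18 in replicates 3 and 4, against 11.49 in both of replicates 1 and 2. The macrophage markers were at 4.65 in replicates 3 and 4 of C57epi.1 media, against 4.28 to 4.34 in replicates 1 and 2, and at 4.73 against 4.36 to 4.45 in Bm12.4 media, far below the 11.71 to 11.93 of macrophages. Their part in the gap of the replication genes was not tested. In treated macrophages the gap ran the other way, with replicates 3 and 4 above replicates 1 and 2 for 28 of 42 genes and below for 1 (21.8% and 19.4% of all genes) and a median of 0.26. In macrophage media 7 were above and 3 below (15.1% and 18.1% of all genes), with a median of 0.12.

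The supernatant was set against media first over all 4 replicates of each line. For C57epi.1, limma called 0 of 42 genes at an adjusted p under 0.05, against 19.2% of all genes, and the median difference was 0.22. In Bm12.4 it called 0 of 42, against 7.25%, with a median of 0.26. At an unadjusted p under 0.05, 1 gene passed in each line: E2f1 in C57epi.1 (−0.27 ± 0.121 SE, adjusted p = 0.134), whose 4 treated arrays all lay below the media arrays (as for 11.4% of all genes), and Rfc3 in Bm12.4 (0.93 ± 0.332, adjusted p = 0.104). Cdc6 shows the spread behind these tests, with 7.65 ± 0.108 in treated C57epi.1 and 7.58 ± 1.41 in media, and 7.56 ± 0.743 in treated Bm12.4 and 7.51 ± 1.91 in media (SD, n = 4 each). With the replicate number as a block, limma called 0 of 42 in C57epi.1 and 1 in Bm12.4, Rfc3 (adjusted p = 0.0482, limma), where 8.28% of all genes were called in Bm12.4. A block fit on the 8 Bm12.4 arrays alone called 0 of 42 (5.39% of all genes). Leaving out 1 media array could turn the median over the 42 genes: it was −0.1 without C57epi.1 media replicate 3 and −0.1 without Bm12.4 media replicate 3.

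The supernatant difference depended on which media pair the treated arrays were set against. The pairs were picked for their media levels, which bears on the direction of any such difference, so the values within pairs of the lines are given without a test. Treated replicates 3 and 4 were higher than media replicates 3 and 4, the low pair, for 38 of 42 genes in C57epi.1. There Tk1 was equal, and Gins4, Prim1 and E2f1 were lower. In Bm12.4 they were higher for 42 of 42, and the median difference was 0.95 in each line. Treated replicates 1 and 2 were lower than media replicates 1 and 2, the high pair, for 37 of 42 in C57epi.1 and for 38 of 42 in Bm12.4, with medians of −0.47 and −0.39. Over all genes these medians lay between −0.065 and −0.035. The treated and media arrays of a pair share only their numbers in the labels.

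The mesenchymal markers also differed between treated and media arrays. In C57epi.1 they averaged 10.32 to 10.5 in treated replicates 3 and 4, against 11.61 to 11.63 in media, and 10.4 to 10.46 in treated replicates 1 and 2, against 10.72 to 10.9 in media. In Bm12.4 they averaged 11.81 to 11.84 in treated replicates 3 and 4, against 12.15 to 12.18 in media, and 11.59 to 11.87 in treated replicates 1 and 2, against 11.49 in media. Their part in the differences of the replication genes was not tested.

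By sign, 33 of 42 genes in C57epi.1 and 38 of 42 in Bm12.4 were lower with supernatant in replicates 1 and 2 and higher in replicates 3 and 4. Cdc6 in C57epi.1 is an example with little spread among the treated arrays. In replicates 3 and 4 of C57epi.1 it read 7.58 and 7.54 with supernatant, against 6.34 and 6.39 in media, a difference of 1.19. In replicates 1 and 2 it read 7.75 and 7.74 with supernatant, against 8.64 and 8.96 in media, a difference of −1.06. All 4 treated arrays were thus within 0.21 of each other and lay between the media pairs. Other treated arrays spread more widely. Cdc6 ran from 6.68 to 8.42 in treated Bm12.4, and Ccne1 from 7.34 to 8.88 in treated C57epi.1.

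**Figure D4:**
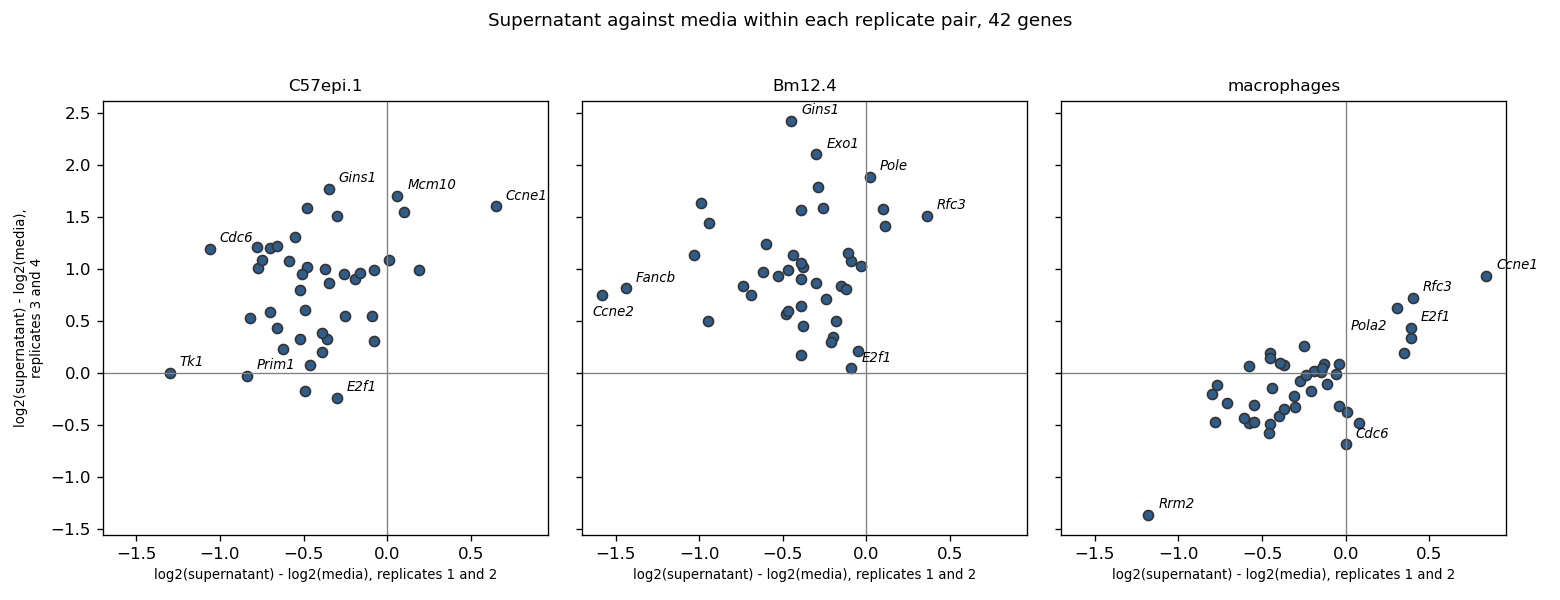
Supernatant minus media in log2 units within replicates 3 and 4 (vertical axis) against that within replicates 1 and 2 (horizontal axis) for each of the 42 genes (points) in C57epi.1, Bm12.4 and macrophages, with no test shown. In both lines most points lie left of 0 and above 0, 33 in C57epi.1 and 38 in Bm12.4, while the macrophage points scatter along the diagonal.

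By role, the median difference in replicates 3 and 4 was smallest for the clamp and its loader, 0.34 in C57epi.1 and 0.54 in Bm12.4, which also had the narrowest media gaps. It was 1.03 in C57epi.1 and 1.06 in Bm12.4 for the licensing genes, all 10 of them positive in each line. Mcm5 read 9.01 and 9.03 with supernatant in C57epi.1, against 7.87 and 8.03 in media, and 8.09 and 8.87 with supernatant in Bm12.4, against 6.45 and 6.94 in media. Gins1 had the widest difference of the 42 in both lines. It read 7.77 and 7.53 with supernatant in C57epi.1, against 6.05 and 5.7 in media, and 6.39 and 7.03 with supernatant in Bm12.4, against 4.27 and 4.3 in media.

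Prim1, the catalytic subunit of primase, was at 7.94 and 7.85 with supernatant in replicates 3 and 4 of C57epi.1, against 7.92 and 7.93 in media, so its arrays overlapped there, while in Bm12.4 it differed by 0.97. Pole and Exo1 differed most among the copying and processing genes of Bm12.4, by 1.88 and 2.1. Of the nucleotide supply genes, Rrm2 differed by 1.2 in C57epi.1 and 1.44 in Bm12.4, and Tk1 by 0 in C57epi.1. Ccne1 and Ccne2 differed by 1.6 and 1.22 in C57epi.1 and by 0.64 and 0.75 in Bm12.4.

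In replicates 1 and 2, Tk1, which salvages thymidine, had the largest negative difference in C57epi.1. It read 8.7 and 8.51 with supernatant, against 9.9 and 9.92 in media, a difference of −1.3. Ccne2 had the largest in Bm12.4, −1.58, at 7.05 and 6.05 with supernatant, against 8.19 and 8.07 in media. Genes that were higher by sign in both pairs were Orc1, Mcm10, Rfc3, Dut and Ccne1 in C57epi.1 and Mcm6, Mcm10, Rfc3 and Pole in Bm12.4, so Mcm10 and Rfc3 were on both lists.

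In macrophages the median supernatant difference was small and negative in both pairs, −0.11 in replicates 3 and 4 and −0.28 in replicates 1 and 2. Over all 4 replicates limma called 1 of 42 genes higher and 0 lower, against 6.13% and 6.31% of all genes, with a median of −0.18. The gene called was E2f1, which read 7.62, 7.76, 7.53 and 8.19 with supernatant, against 7.3, 7.31, 7.34 and 7.51 in media. It rose by 0.41 ± 0.121 (SE, adjusted p = 0.0261, limma). All 4 treated arrays lay above all media arrays, but the call was lost when any 1 of treated replicates 2 and 4 or media replicates 1, 2 and 3 was left out, with adjusted p from 0.0542 to 0.127 there and from 0.0104 to 0.137 over all 17 alternatives (limma). Of the other genes, Ccne1, Pola2 and Rfc3 also had all treated arrays above all media arrays (9.33% of all genes), and Tyms, Orc6 and Pold1 had all below (11.3%).

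Ccne1 had the largest positive difference in macrophages. It read 8.14, 8.02, 7.97 and 8.25 with supernatant, against 7.15, 7.34, 7.11 and 7.25 in media, 0.88 higher. With the spread of all 6 groups in the error, to which the split line arrays contribute, its adjusted p was 0.433 (limma). In a fit on the 8 macrophage arrays alone it was 3.83e-05, within replicates 3 and 4 it was 0.0113 and within replicates 1 and 2 it was 0.0203 (limma). That fit on macrophages alone called 3 of 42 genes higher (Ccne1, Pola2 0.47 and Rfc3 0.56) and 6 lower (Orc6 −0.31, Mcm2 −0.44, Mcm3 −0.43, Pold1 −0.29, Rrm2 −1.27 and Tyms −0.53), where 17.6% of all genes were called. E2f1 was not among them (adjusted p = 0.0535, limma).

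Rrm2 had the largest negative difference in macrophages, at 6.2, 6.31, 6.06 and 7.48 with supernatant, against 6.71, 8.16, 7.97 and 8.3 in media. The groups overlapped, because media replicate 1 was low and treated replicate 4 high, and the difference of −1.27 ± 0.755 (SE) had an adjusted p of 0.368 (limma). Within replicates 3 and 4 limma called 3 of 42 higher (Ccne1, Rfc3 and Pola2) and 2 lower (Rrm2 −1.37 and Prim1 −0.58), against 12.8% of all genes. Within replicates 1 and 2 it called 1 higher (Ccne1) and 6 lower (Mcm2, Mcm6, Mcm7, Lig1, Rrm1 and Tyms), against 14.4%. Neutrophil markers (S100a8, S100a9, Ly6g, Camp and Ngp) averaged 4.21 to 5.5 in treated macrophages, against 4.03 to 4.48 in media, and their part in these differences was not tested.

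**Figure D5:**
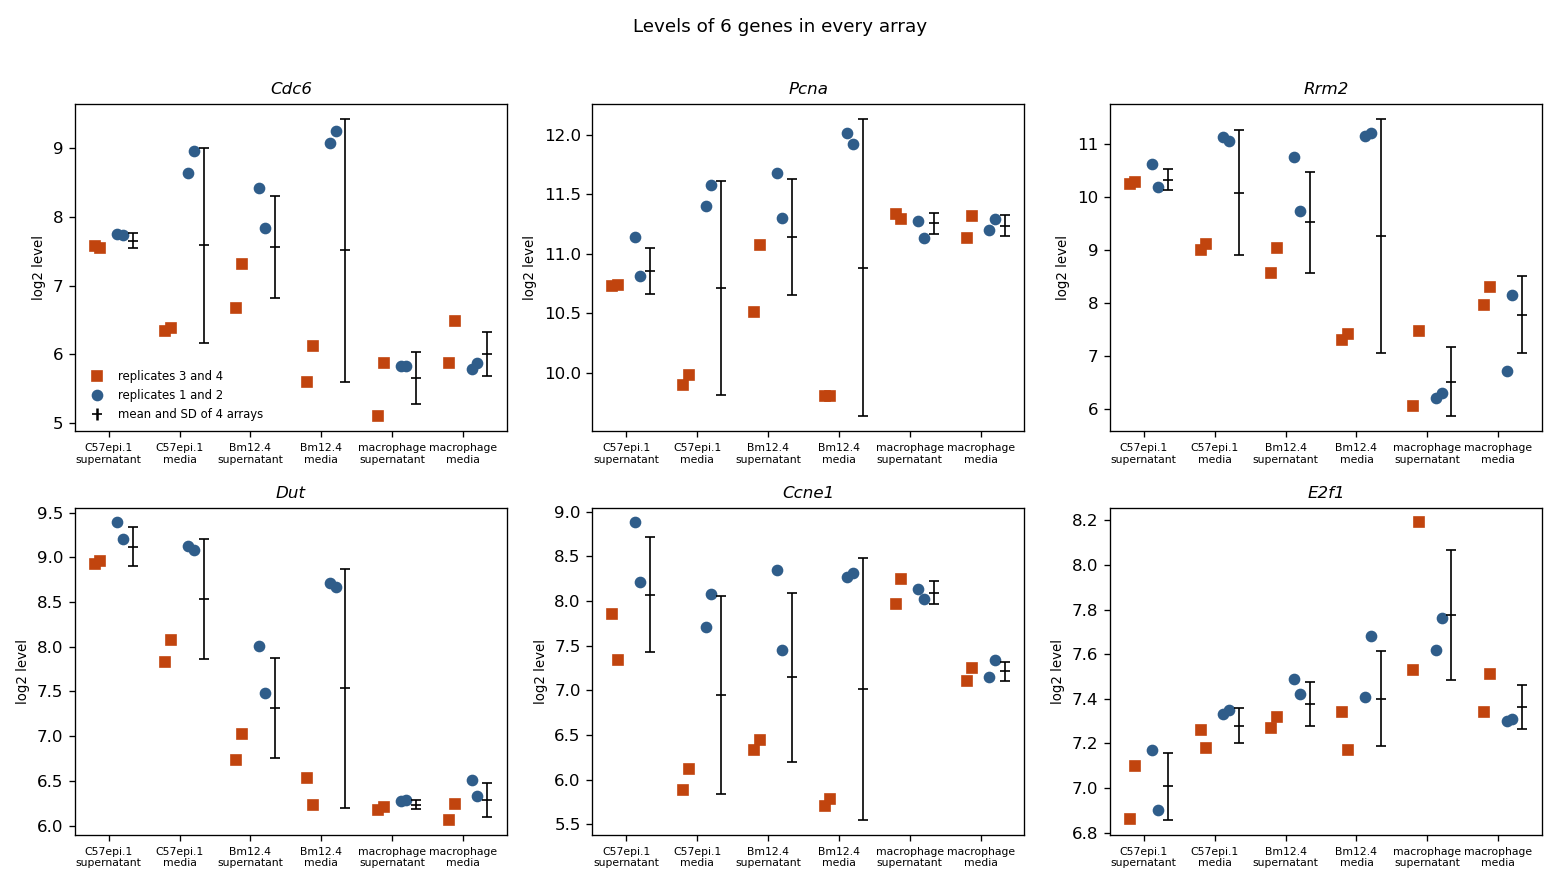
Log2 levels (vertical axes) of Cdc6, Pcna, Rrm2, Dut, Ccne1 and E2f1 in every array of the 6 groups (horizontal axes), with squares for replicates 3 and 4, circles for replicates 1 and 2 and a black bar for the mean and SD of 4 arrays. The treated C57epi.1 arrays of Cdc6, from 7.54 to 7.75, lie between the media pairs, Ccne1 in treated macrophages (7.97 to 8.25) lies above media (7.11 to 7.34), and E2f1 shows hardly any split between the pairs.

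Most replication genes had higher levels in the lines than in macrophages. These comparisons use the same arrays as the treatment tests and are not independent of them. In media, limma called 30 of 42 genes higher in the mean of both lines than in macrophages and 0 lower, with a median of 1.55, where 24.7% of all genes were called higher and 22.4% lower. Prim1 differed most: it lay between 7.92 and 9.19 in C57epi.1 media and between 7.53 and 9.88 in Bm12.4 media, against 4.98 to 6.05 in macrophage media, a difference of 3.09 ± 0.393 (SE, adjusted p = 4.64e-07, limma). Mcm7 and Tk1 followed, at 2.55 and 2.5. A fit on only the media arrays called 23 of 42 higher and 0 lower, against 42.4% of all genes in either direction. All 8 line arrays lay above all 4 macrophage arrays for 15 of the 42 (13.5% of all genes). The size of this difference depended on the pair. Within replicates 3 and 4 the lines were higher by sign for 28 of 42 and lower for 14, with a median of 0.53, and within replicates 1 and 2 they were higher for 42 of 42, with a median of 2.45.

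Of the 14 genes lower by sign in replicates 3 and 4 of the lines than in those of macrophages, Pcna had the largest difference, −1.36. In macrophages it held between 11.13 and 11.33 in all 8 arrays, treated or not. Over all replicates Pcna did not pass in media (−0.44 ± 0.375 SE, adjusted p = 0.385, limma). Cdc6 passed over all replicates (1.54, adjusted p = 0.0327, limma) and differed by −0.06 within replicates 3 and 4. Its call was lost without replicate 1 or 2 of either line or without macrophage replicate 1, 2 or 3 (adjusted p from 0.0638 to 0.0781, limma, in a range from 9.55e-11 to 0.865 over 21 alternatives). Prim1 kept its call in all 21 alternatives, with differences from 1.82 to 4.37. The 21 alternatives include the fits within each pair. The pairs were picked for the media levels of the lines, so those fits are no independent tests.

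With supernatant the lines again stood above macrophages, with 33 of 42 genes higher and 1 lower and a median of 1.94 (24.3% and 24.4% of all genes). All 8 line arrays lay above all 4 macrophage arrays for 33 genes (16.3% of all genes). Prim1 (3.48, adjusted p = 7.16e-08, limma), Rrm2 (3.42, adjusted p = 0.00011, limma) and Exo1 (3.16, adjusted p = 0.000117, limma) led. By sign the lines were higher for 38 of 42 in replicates 3 and 4 and for 41 of 42 in replicates 1 and 2, with medians of 1.58 and 2.29. The gene called lower was E2f1, which read 7.17, 6.9, 6.86 and 7.1 in C57epi.1 and 7.49, 7.42, 7.27 and 7.32 in Bm12.4, against 7.62, 7.76, 7.53 and 8.19 in macrophages. Its difference of −0.58 ± 0.105 (SE, adjusted p = 5.23e-05, limma) stayed past the threshold in all 21 alternatives. Ccne1, Pcna, Rfc2, Rfc5, Fen1, Gins3, Rpa2 and Ccne2 did not pass in the fit over all groups, whose error includes the split media arrays. A fit on only the treated arrays called 38 of 42 higher and 1 lower, against 52.3% of all genes in either direction.

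Between the lines, limma called 0 of 42 genes in media (24.4% of all genes, and 4 of the 42 at an unadjusted p under 0.05). Same-numbered media arrays of the lines deviated together, but so did arrays of 1 pair with different numbers. Deviations of C57epi.1 replicate 2 correlated at 0.562 with Bm12.4 replicate 1 and at 0.512 with replicate 2. Pairing by number thus cannot be told apart from the split between the pairs. With the replicate number as a block over all 6 groups limma called 4 (26.4% of all genes): Gins2, Dut and Prim2 higher and Pola2 lower in C57epi.1. A block fit on the 8 media arrays of the lines alone, added after the data were seen, called 12 higher and 2 lower in C57epi.1 than in Bm12.4, 14 of 42, against 24.3% of all genes. The 2 lower were Pola2, the second subunit of polymerase alpha (−0.82 ± 0.0948 SE, adjusted p = 0.00054, limma), and Fen1 (−0.71 ± 0.146, adjusted p = 0.00939, limma). Of the 12 higher, Dut differed by 1 ± 0.237 (SE, adjusted p = 0.0178, limma), Gins1 by 0.94 and Orc1 by 0.7. By sign C57epi.1 was higher for 38 of 42 in replicates 3 and 4, with a median of 0.55, and for 18 of 42 in replicates 1 and 2, with a median of −0.07.

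With supernatant, 2 genes were higher and 2 lower in C57epi.1 than in Bm12.4 over all replicates (14.3% and 15.6% of all genes). Dut, which removes dUTP from the nucleotide pool, read 9.39, 9.2, 8.92 and 8.96 in C57epi.1, against 8.01, 7.48, 6.73 and 7.02 in Bm12.4. The groups did not overlap, and the difference of 1.81 ± 0.431 (SE, adjusted p = 0.00211, limma) was called in all 17 alternatives. Orc1 read 6.69, 6.38, 6.08 and 6.11 in C57epi.1, against 5.83, 4.92, 4.28 and 4.36 in Bm12.4, which put C57epi.1 higher by 1.47 ± 0.482 (SE, adjusted p = 0.0229, limma). Without C57epi.1 replicate 1, Bm12.4 replicate 3 or Bm12.4 replicate 4 the call on Orc1 was lost (adjusted p = 0.0662, 0.0807 and 0.0755, limma, in a range from 7.41e-07 to 0.0807 over 16 alternatives). Gins4 read 8.61, 8.56, 8.33 and 8.38 in C57epi.1, against 9.45, 9.38, 8.9 and 9.14 in Bm12.4, which gave a value of −0.75 ± 0.188 for C57epi.1 minus Bm12.4 (SE, adjusted p = 0.00343, limma). E2f1 was lower too, by a difference of −0.37 (adjusted p = 0.0234, limma), a call that 7 of 17 alternatives lost (adjusted p from 0.0103 to 0.166 over the 17). Among the 7 were median centring (0.119), replicate 2 or 3 of C57epi.1 left out, and replicate 1 or 2 of Bm12.4 left out. By sign C57epi.1 was higher for 29 of 42 in treated replicates 3 and 4, with a median of 0.45, and for 16 of 42 in treated replicates 1 and 2, with a median of −0.18.

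Whether the response to supernatant differed between kinds of cell was tested as an interaction. Between the lines and macrophages limma called E2f1 alone, 0 of 42 higher and 1 lower (4.27% and 3.81% of all genes). The supernatant difference in E2f1 was −0.27 in C57epi.1 and −0.03 in Bm12.4, against 0.41 in macrophages, and the mean difference of the lines minus that of macrophages was −0.56 ± 0.148 (SE, adjusted p = 0.0193, limma, from 0.00767 to 0.0808 over 33 alternatives and not past the threshold within either pair). The median of the lines' response minus that of macrophages was 1 within replicates 3 and 4 and −0.08 within replicates 1 and 2, values that carry the media split of the lines. Between C57epi.1 and Bm12.4 the response was called different in 0 of 42 genes by limma (4.03% of all genes, and 0 of the 42 at an unadjusted p under 0.05).

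Other genes of the pathway followed the split in media to differing extents. Of 36 further replication genes, 34 had both of replicates 3 and 4 below replicates 1 and 2 in media of each line (23.7% of all genes in C57epi.1 and 24.1% in Bm12.4), with medians of −1.31 in C57epi.1 and −1.99 in Bm12.4. Pold4, the small subunit of polymerase delta, lay higher in replicates 3 and 4 of both lines, and Orc3, a subunit of the origin recognition complex, did so in C57epi.1, by 0.17. Pold4 read 8.83 and 8.99 in replicates 3 and 4 of C57epi.1 media, against 7.66 and 6.77 in replicates 1 and 2, and 9.84 and 9.81 against 8.22 and 8.55 in Bm12.4. Of 15 further nucleotide genes, 10 lay lower in each line, and 4 lay higher in C57epi.1 and 3 in Bm12.4. Among these, Dguok, which phosphorylates deoxyguanosine in mitochondria, read 8.42 and 8.36 in replicates 3 and 4 of Bm12.4 media, against 7.57 and 7.73 in replicates 1 and 2. Of 27 regulators of S phase entry, 20 lay lower in C57epi.1 and 23 in Bm12.4, and 2 and 4 lay higher. Cdkn1b, the cyclin-dependent kinase inhibitor p27, lay higher in Bm12.4, at 9.57 and 9.57 in replicates 3 and 4, against 8.97 and 8.97 in replicates 1 and 2.

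Some of these further genes passed the test over all replicates. Samhd1, which degrades deoxynucleotides and is known as an interferon-inducible gene, rose in all 3 kinds of cell: by 1.83 in C57epi.1 (adjusted p = 2.84e-14, limma), by 2.95 in Bm12.4 (adjusted p = 9.8e-18, limma) and by 1.53 in macrophages (adjusted p = 1.04e-12, limma). It read 12.28, 12.18, 12.25 and 12.19 in treated Bm12.4, against 9.15, 9.2, 9.26 and 9.48 in media. In macrophages, the D-type cyclins Ccnd1 and Ccnd2 rose by 3.24 and 2.94 and Dck, which phosphorylates deoxycytidine, by 2.38, while Ccna2, Top2a and Cdkn2c differed by −2.5, −1.84 and −1.4 and were called lower. As shares of each list, the calls did not stand above the background in C57epi.1, at 13.9%, 13.3% and 18.5% of the replication, nucleotide and regulator lists, against 19.2% of all genes. In Bm12.4 they were 2.78%, 6.67% and 0%, against 7.25%. Of the 36 replication genes limma called 2 higher and 3 lower in C57epi.1, 1 and 0 in Bm12.4, and 0 and 2 in macrophages. The 15 nucleotide genes gave 1 higher and 1 lower in C57epi.1, 1 and 0 in Bm12.4, and 2 and 1 in macrophages. The 27 regulators gave 2 higher and 3 lower in C57epi.1, 0 and 0 in Bm12.4, and 3 and 3 in macrophages. In macrophages the shares, counted in either direction, were 5.56%, 20% and 22.2%. Of all 19938 genes, 2482 were called there in either direction, 6.13% higher and 6.31% lower.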

How the data were processed

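Gene expression was measured in 24 RNA samples on 1-colour Affymetrix whole-transcript arrays, from 100 ng of total RNA each. The deposited values are log2 levels per probe set, made by the authors with GCOS, Partek 6.2 and RMA, per the submitters' processing notes. The step order and the GCOS and RMA versions were not given in the sources used here. RMA equalises the distribution of levels between arrays, so a change in the total RNA of a cell does not show. The number of arrays limits the precision, since the values carry no counts.

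Of 28853 probe sets, 21789 have 1 gene symbol in the platform annotation, 1621 several and 5443 none, and 19938 genes remained after the probe set with the highest mean was kept for each. Differences were tested with limma 3.58.1 in R 4.3.3 (statmod 1.5.0), in 1 model of 6 group means over 24 arrays with 18 residual degrees of freedom, for 9 comparisons. Two-sided p-values were adjusted over the 19938 genes of each comparison (Benjamini-Hochberg), and a gene is called at an adjusted p under 0.05. The labels give replicate numbers without saying what they share. Deviations from the group means, correlated across genes between same-numbered arrays, were all over 0.1 for supernatant against media in Bm12.4 (0.226 to 0.683) and for C57epi.1 against Bm12.4 in media (0.512 to 0.625), where the numbers were taken to pair the arrays. In C57epi.1 they were −0.143 to 0.396 and in macrophages −0.134 to 0.118. In media, C57epi.1 replicate 3 correlated at 0.618 with Bm12.4 replicate 3 and at 0.635 with replicate 4. In Bm12.4, treated replicate 1 correlated at 0.683 with media replicate 1 and at 0.643 with media replicate 2. The block by number therefore cannot be told apart from the split between the pairs. Values within a replicate pair come from a model of 12 group means with 12 residual degrees of freedom. The procedure was tested on simulated data.

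The members, the pairs and the gene lists were chosen with earlier results of these data known, so a pattern seen before is not supported independently by being found again. Named genes are a set of examples of the roles (Mcm5, Cdc6, Cdc45, Pcna, Pola1, Fen1, Rrm2, Tyms, Ccne1, E2f1), up to 4 called members with the largest difference each way per comparison, and up to 3 from each further list. Members named outside this rule were chosen after their values were seen. The alternatives were a second quantile normalization, median centring, a minimum mean level of 5, the probe set with the largest variance, an intensity trend with a robust prior, only the groups compared, a replicate block (also on only the groups compared, added after seeing the data), each pair apart and leaving out each array. Ranges and counts over the alternatives include the fits on each pair apart. In the lines those fits are no independent tests, since the pairs were picked for their media levels. Some genes of the further lists were not analysed here.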

Additional observations from a re-analysis of the deposited data

Results flagged for a closer look

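Among groups of 4 arrays, a single array stood far from the other 3 in 10 of 252 cases (42 genes in 6 groups). At 1 of 20, 12.6 would be expected for independent cases. The genes share arrays and were not independent, so this number cannot decide whether chance gives the 10. In C57epi.1 with supernatant the array was replicate 1 for 6 genes, and replicate 1 was the highest of the 4 for 42 of 42 genes there. Mcm7 read 10.61 there, against 9.98 to 10.04 in the other treated arrays. For Rfc2 the value was 9.62, against 9.23 to 9.28, and for Rfc3 it was 9.72, against 9.14 to 9.22. Pola1 read 8.66, against 8.06 to 8.14, Rpa2 read 8.7, against 7.88 to 8.01, and Fignl1 read 8.83, against 8.07 to 8.19. In Bm12.4 with supernatant, replicate 3 was low for Rfc3, at 9.18 against 9.65 to 9.72. In macrophages with supernatant, Cdc6 was low in replicate 3, at 5.1 against 5.83 to 5.87, and Gins2 was high in replicate 4, at 7.02 against 6.81 to 6.84. In macrophage media, Cdc6 was high in replicate 4, at 6.48 against 5.79 to 5.88.

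The response of E2f1 to supernatant differed between the lines and macrophages by −0.56 (adjusted p = 0.0193, limma). Every treated macrophage array lay above every macrophage media array, and every treated C57epi.1 array lay below every C57epi.1 media array.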

How the results depend on the processing

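The count of members called depended on which replicates entered. The pairs were picked for the media levels of the lines, so their counts in the lines are no independent tests. They are listed only to show how the fits depend on the arrays used, and nothing is concluded from them. Counts without a value over all genes beside them are not set against the background. For supernatant against media the count of members was 31 within replicates 3 and 4 and 13 within replicates 1 and 2 in C57epi.1. In Bm12.4 it was 32 and 8, where 2874 and 2415 of all 19938 genes were called. In macrophages it was 5 and 7, against 12.8% and 14.4% of all genes. A fit on the macrophage arrays alone called 9, against 17.6% of all genes. For the lines against macrophages in media the median was 0.53 within replicates 3 and 4 and 2.45 within replicates 1 and 2. Within replicates 3 and 4 the C57epi.1 treatment median was 0.95, and Cdc6 of the lines against macrophages in media turned to −0.06. For C57epi.1 against Bm12.4 the count was 24 and 11 in media and 23 and 12 with supernatant. A fit on the treated arrays of the lines alone called 9 of 42, against 34.6% of all genes. The response of the lines against macrophages gave 32 and 4, and that of C57epi.1 against Bm12.4 gave 4 and 1. Over all genes, fits on only the groups compared called 786 for supernatant in Bm12.4, 3007 for C57epi.1 against Bm12.4 in media and 438 for their responses; the pairs gave 2874 and 2415 for supernatant in Bm12.4, 2996 within replicates 3 and 4 for the response of the lines against macrophages, and 2042 for that of C57epi.1 against Bm12.4. The causes were not tested.

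Leaving out 1 array at a time called 0 members for supernatant in C57epi.1, 0 to 1 in Bm12.4 and 0 to 1 in macrophages. It called 33 to 35 for the lines against macrophages with supernatant and 25 to 31 in media, 3 to 4 for C57epi.1 against Bm12.4 with supernatant and 1 to 6 in media, 1 for the response of the lines against macrophages and 0 for that of C57epi.1 against Bm12.4. The medians, in that order, ran from −0.1 to 0.54, −0.1 to 0.62, −0.31 to −0.13, 1.83 to 2.07, 1.36 to 1.76, −0.17 to 0.39, −0.14 to 0.6, 0.23 to 0.68 and −0.54 to 0.21. Over all genes, also in that order, the calls numbered 2923 to 4262, 1142 to 1448, 2008 to 2331, 9017 to 9748, 8801 to 9525, 5250 to 6057, 4299 to 5042, 1311 to 1816 and 534 to 1263. Other settings were a second quantile normalization, median centring, the filter on mean level, the choice of probe set and the robust prior. With these, each member count stayed within 1.5 times and each median within 1 SD. The pooled SD of the members' mean level per array, which includes the split media arrays, was 0.71. It exceeds medians such as 0.22 for supernatant in C57epi.1 and 0.26 in Bm12.4. Such a median could change sign within this limit, so the limit cannot show that the medians were stable.

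With the replicate block over all groups, 1 member was called for supernatant in Bm12.4 and 4 for C57epi.1 against Bm12.4 in media. With the block on only those arrays, 14 were called between the lines in media and 0 for supernatant in Bm12.4. The block moved no other count of members called by over 1.5 times. In C57epi.1 and in macrophages, treated and media arrays correlated best with their own number in 2 of 4 and 1 of 4 cases. Only 4 arrays a group, in pairs that differ, limit what the pooled tests can detect.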
